A study of Mus musculus with 12 samples.

Results

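The blood-cord barrier is the wall that the blood vessels of the spinal cord put between blood and nerve tissue. It was followed here through 10 genes of that wall, taken as named markers: 7 of endothelial cells, which line the vessel, and 3 of pericytes, which wrap it from outside. The endothelial genes were Cldn5, Pecam1, Flt1, Tek, Cdh5, Slco1a4 and Abcb1a, and the pericyte genes were Pdgfrb, Rgs5 and Vtn. Each had a single row among the 36121 genes of the deposited table, and all 10 were among the 15259 genes that averaged 1 TPM or more and entered the tests. TPM is the share of a gene's transcripts among all transcripts, corrected for transcript length, here with the authors' own scaling between mice.

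RNA was sequenced from whole spinal cord of 3-month-old C57BL6 mice, 4 separate mice in each of 3 genotype groups. The cKO mice carried Gfap-Cre with Tardbp-fl/fl, the cHet mice carried Gfap-Cre with Tardbp-fl/+, and the control mice were Tardbp-fl/fl without Cre, so every group carried at least a floxed allele and no group was free of one. Gfap-Cre is a recombinase made under the promoter of Gfap, a gene of astrocytes, the glia whose endfeet sheathe the vessels, and Tardbp encodes the RNA-binding protein TDP-43. No control group with Cre and without a floxed allele is among the samples, so an effect of the Cre itself cannot be told apart from that of the deletion. The comparison asks whether vessel-wall genes differed in cord whose astrocytes were targeted, since the recombinase is not directed at endothelial cells or pericytes.

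Endothelial cells of brain and cord are joined by tight junctions, carry few transport vesicles and depend on carriers and efflux pumps for exchange. Pericytes share a basement membrane with them and are recruited by endothelial PDGF-B acting on their receptor, and astrocytes contribute Wnt ligands and a covering of endfeet. In whole cord these cells are a small part of the tissue, and fewer cells of a type and less RNA per cell cannot be told apart.

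Positions are those of the GRCm38 mouse genome. Cldn5 (ENSMUSG00000041378, chr16:18776847-18778262, plus strand) has 1 annotated transcript of 1 exon and 1416 bases. Pecam1 (ENSMUSG00000020717) lies at chr11:106654217-106750628 on the minus strand, Flt1 (ENSMUSG00000029648) at chr5:147561604-147726011 on the minus strand and Tek (ENSMUSG00000006386) at chr4:94739289-94874976 on the plus strand. Cdh5 (ENSMUSG00000031871) lies at chr8:104101625-104144511 on the plus strand, Slco1a4 (ENSMUSG00000030237) at chr6:141805440-141856199 on the minus strand and Abcb1a (ENSMUSG00000040584) at chr5:8660077-8748575 on the plus strand. Rgs5 (ENSMUSG00000026678) lies at chr1:169655501-169695813 and Vtn (ENSMUSG00000017344) at chr11:78499091-78502324, both on the plus strand. The values are sums over whole genes, exons of every annotated transcript included, and do not separate isoforms such as the soluble and membrane forms of Flt1.

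Abcb1a was the gene of the 10 that shared most sequence with other genes, and how reads were divided between them bears on its level by an amount that was not measured. Of its 5472 different 31-base words in the annotated transcripts, 1542 (28.2%) also occurred in another gene, 1186 of them in Abcb1b, a neighbouring efflux pump gene on chromosome 5. The longest run of bases that the coding sequences of both pumps share is 338 bases long. Its first 120 bases, from coding position 1357 in Abcb1a and 1366 in Abcb1b, are shown because a read that falls inside them cannot tell the pumps apart.
Abcb1a and Abcb1b: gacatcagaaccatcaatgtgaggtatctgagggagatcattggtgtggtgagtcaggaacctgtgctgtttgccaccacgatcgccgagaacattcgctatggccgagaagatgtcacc
Slco1a4 shared 5.03% of its words with other genes, 218 of them with Slco1a5, and Pecam1 shared 2.5%. Flt1 shared 0.364% and Rgs5 0.376%, while Cldn5, Tek, Cdh5, Pdgfrb and Vtn shared none.

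Promoter windows of 300 bases, 250 before and 50 after the start, were found in RefSeq (GRCm38.p6) for 7 of the 10 genes. They were searched on both strands for AGGAAG, a core bound by ETS factors, which are regulators of endothelial genes, and for CTTTGA, a core bound by the LEF/TCF partners of beta-catenin. The motifs do not overlap each other. Among 32544 promoter windows, 35.1% held the first and 16% held the second. AGGAAG occurred 2 times in the window of Flt1, 1 time in that of Slco1a4 and 2 times in that of Abcb1a, and it was not found in the windows of Cldn5, Tek, Rgs5 and Vtn. CTTTGA occurred 1 time in the window of Rgs5 and 2 times in that of Abcb1a. The Abcb1a window lies 92986 bases from the gene start of the annotation used for the coordinates, so it may belong to another first exon. The windows of Flt1 (chr5:147725962-147726261, minus strand), Cldn5 (chr16:18776597-18776896, plus strand) and Slco1a4 (chr6:141856171-141856470, minus strand) are shown because they differ in the number of matches and in base composition, and capitals mark AGGAAG or its reverse complement.
Flt1: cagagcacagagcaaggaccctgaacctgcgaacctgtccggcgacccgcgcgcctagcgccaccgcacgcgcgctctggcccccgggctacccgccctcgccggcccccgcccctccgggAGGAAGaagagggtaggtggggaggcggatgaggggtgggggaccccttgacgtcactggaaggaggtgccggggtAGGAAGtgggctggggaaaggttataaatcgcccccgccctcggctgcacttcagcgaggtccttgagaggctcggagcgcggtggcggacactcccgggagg
Cldn5: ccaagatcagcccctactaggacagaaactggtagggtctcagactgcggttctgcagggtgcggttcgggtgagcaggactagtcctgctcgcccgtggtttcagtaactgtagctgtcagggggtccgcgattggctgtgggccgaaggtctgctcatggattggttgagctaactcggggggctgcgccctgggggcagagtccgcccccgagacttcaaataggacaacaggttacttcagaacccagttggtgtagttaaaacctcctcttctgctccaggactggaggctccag
Slco1a4: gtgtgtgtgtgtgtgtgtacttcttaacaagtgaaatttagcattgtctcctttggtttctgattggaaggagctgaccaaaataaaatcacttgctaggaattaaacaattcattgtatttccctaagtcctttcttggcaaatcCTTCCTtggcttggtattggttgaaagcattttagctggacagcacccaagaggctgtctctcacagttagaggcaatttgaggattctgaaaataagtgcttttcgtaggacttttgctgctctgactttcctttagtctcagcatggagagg
GC content was 70.67% in the Flt1 window, 58.33% in the Cldn5 window and 40.67% in the Slco1a4 window, against a median of 53% over all windows. A match or its absence describes these letters only.

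Before the barrier genes, the labels were checked. Tardbp had 150.3, 150.2, 151.2 and 140.5 TPM in cKO cords and 178.1, 173.4, 171.9 and 158.0 TPM in cHet cords, against 180.6, 167.1, 168.7 and 166.1 TPM in control cords. All 4 cKO cords lay below all others. The fall was small in whole cord (log2 change -0.20, SE 0.04, adjusted p = 0.0113 against control by limma with Benjamini-Hochberg adjustment). The cHet and control cords overlapped (log2 change -0.003, two-sided exact permutation p = 0.971). The level of Tardbp therefore does not tell cHet from control cords here. Gfap itself was higher in cKO cords (1391, 1411, 1546 and 1216 TPM) than in control cords (1199, 1092, 1212 and 1195 TPM; log2 change 0.24, SE 0.06, adjusted p = 0.0386), though 13 of 23 other settings did not call it (adjusted p up to 0.163): without any 1 library of these genotypes other than cKO replicate 4, with each of the 3 rescalings of the libraries, with no filter on low values, without the eBayes trend and with only these genotypes in the fit. The library labelled control replicate 1 is labelled male but had 0.288 TPM of the Y-linked gene Ddx3y, at the level of the 6 libraries labelled female (0.336 to 1.16 TPM) and far below the other 5 labelled male (30.5 to 36.5 TPM). Eif2s3y, Kdm5d and Uty went the same way in it, so results by sex are given with and without this library, and the words female and male below refer to the labels.

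The 10 levels in control cords ran from Slco1a4 at the top to Cdh5 at the bottom. Slco1a4, a carrier of organic anions that marks barrier endothelium in mouse, had the highest mean level, 67.0 ± 7.44 TPM (SD, n = 4). Rgs5, a regulator of G-protein signals in pericytes, followed at 41.1 ± 2.45 TPM, then Cldn5 at 37.1 ± 8.31 TPM and Vtn at 36.4 ± 0.498 TPM. The ranges of Rgs5 and Cldn5 overlapped, as did those of Cldn5 and Vtn, so these neighbours did not differ beyond their spread. Flt1 averaged 18.9 ± 2.19 TPM, Abcb1a 15.6 ± 1.22 TPM and Pecam1 11.4 ± 0.817 TPM, and the ranges of each pair of neighbours from Vtn down to Pdgfrb were separate. Tek averaged 5.92 ± 0.495 TPM, Pdgfrb 5.17 ± 0.219 TPM and Cdh5 4.87 ± 0.435 TPM, with overlapping ranges for Pdgfrb and Cdh5. All 10 defining markers of the vessel wall were therefore detected in every control cord.

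**Figure D1:**
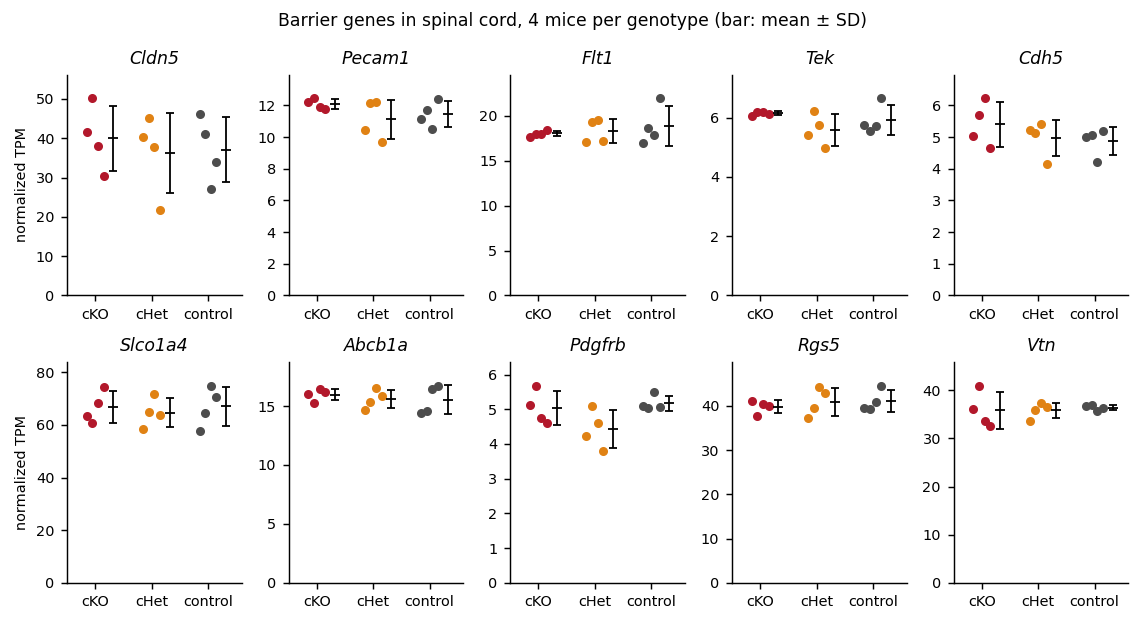
Normalized TPM of the 10 barrier genes in each mouse (points), with the mean ± SD of the 4 mice of a genotype beside them, for cKO, cHet and control cords from left to right; each axis starts at 0. The 3 genotypes overlapped for every gene, and Cldn5 spread most, between 21.7 TPM in a cHet cord and 50.2 TPM in a cKO cord.

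Deletion of Tardbp in Gfap-Cre cells moved none of the 10 barrier genes past the threshold in cKO cords. Claudin-5, the main sealing protein of the barrier's tight junctions, is encoded by Cldn5, and its level was 41.5, 50.2, 37.9 and 30.3 TPM in cKO cords, against 46.2, 41.0, 27.2 and 34.0 TPM in control cords. The groups overlapped over most of their range, with a low mouse on each side. The log2 change was 0.11 (SE 0.23, 95% interval -0.39 to 0.61, limma adjusted p = 0.833), the widest interval of the 10. Cdh5, which encodes VE-cadherin of the adherens junctions, had 5.03, 5.70, 6.23 and 4.65 TPM in cKO cords, against 5.0, 5.07, 4.22 and 5.18 TPM in control cords. It had the largest estimate of the 10 in this comparison, a log2 change of 0.13 (SE 0.11, adjusted p = 0.519), and 2 cKO mice lay above every control mouse. Pecam1, the adhesion molecule CD31 of endothelial contacts, had 12.2, 12.5, 11.9 and 11.8 TPM in cKO cords, against 11.1, 11.7, 10.5 and 12.4 TPM in control cords. Its log2 change was 0.08 (SE 0.08, adjusted p = 0.611), and the cKO cords sat closely together at the upper end of the control range, with cKO replicate 2 just above it.

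Neither endothelial receptor gene was called. Flt1, which encodes VEGF receptor 1, had 17.7, 18, 18 and 18.5 TPM in cKO cords, against 16.9, 18.6, 17.9 and 22.0 TPM in control cords (log2 change -0.06, SE 0.07, adjusted p = 0.727). All cKO values fell inside the control range. Tek, which encodes the angiopoietin receptor Tie2, had 6.07, 6.20, 6.20 and 6.11 TPM in cKO cords, against 5.77, 5.55, 5.72 and 6.65 TPM in control cords (log2 change 0.05, SE 0.08, adjusted p = 0.755). The 4 cKO cords again stood close together, above 3 of the 4 control cords and below the remaining control cord.

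Neither transport gene was called. Slco1a4 had 63.5, 60.7, 68.3 and 74.5 TPM in cKO cords, against 57.9, 64.7, 75.0 and 70.6 TPM in control cords, a log2 change of 0.00 with a 95% interval of -0.19 to 0.19 (adjusted p = 0.986). Abcb1a, which encodes a P-glycoprotein pump that returns drugs to the blood, had 16.0, 15.3, 16.4 and 16.2 TPM in cKO cords, against 14.4, 14.6, 16.5 and 16.7 TPM in control cords (log2 change 0.04, SE 0.06, adjusted p = 0.753). Control cords fell into a lower and an upper pair, and the cKO cords lay between them. Abcb1b, the pump gene that shares sequence with it, was between 2.11 and 4.46 TPM in cKO cords and between 3.58 and 5.09 TPM in control cords.

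No pericyte gene was called. Pdgfrb (ENSMUSG00000024620, chr18:61045150-61085061, plus strand), the receptor for PDGF-B, had 5.12, 5.68, 4.74 and 4.6 TPM in cKO cords, against 5.10, 5.03, 5.49 and 5.05 TPM in control cords (log2 change -0.04, SE 0.09, adjusted p = 0.864). The cKO cords lay on both sides of the control cords. Rgs5 had 41.1, 37.7, 40.5 and 39.9 TPM in cKO cords, against 39.5, 39.4, 40.8 and 44.6 TPM in control cords (log2 change -0.04, 95% interval -0.17 to 0.08, adjusted p = 0.730). Vtn, which encodes vitronectin, a matrix protein made by pericytes in the nervous system, had 36.2, 41.0, 33.5 and 32.5 TPM in cKO cords, against 36.7, 36.9, 35.8 and 36.3 TPM in control cords (log2 change -0.03, SE 0.06, adjusted p = 0.838). For Vtn the means were close, and the 4 control cords differed by little more than 1 TPM. Of the cKO cords, replicate 2 stood above and replicates 3 and 4 below all control cords. This difference in spread, between groups of 4 mice, was not tested. The authors' deposited table attributed 26.5% of the observed variance of Vtn to the estimation of abundance in cKO against control. In cHet against control it was 128%.

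Set against the whole table, 0 of 10 barrier genes were called in cKO against control, where 9.00% of the 15259 genes were called, 5.75% higher and 3.25% lower. That split of 878 higher and 496 lower genes turned to 353 and 1667 when every library was rescaled to the same total, and to 473 and 822 when this was done without mitochondrially encoded genes. Under the first rescaling the log2 changes of Pecam1, Tek and Abcb1a were -0.01, -0.03 and -0.05 in place of 0.08, 0.05 and 0.04. No barrier gene was at an unadjusted limma p under 0.05 in this comparison, against 3473 of the 15259 genes. No barrier gene had groups that did not overlap, against 17.1% of all genes. The median log2 change was 0.02 over the 10 genes and 0.01 over all genes, and 5 of the 10 estimates were above 0. Leaving Cldn5 aside, the 95% intervals of the other 9 genes together ran from -0.24 to 0.37 on the log2 scale, or from -15.2% to 28.8%. For Cldn5 the interval reached 52.5% above the control level, so a moderate difference in either direction was not detectable in these mice. In the authors' deposited table, too, no barrier gene had a q-value under 0.05 by likelihood ratio or Wald test, the smallest being 0.287 and 0.411. Of the 17916 genes in that table, 1687 had a likelihood ratio q-value under 0.05 and 1822 a Wald q-value under 0.05.

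**Figure D2:**
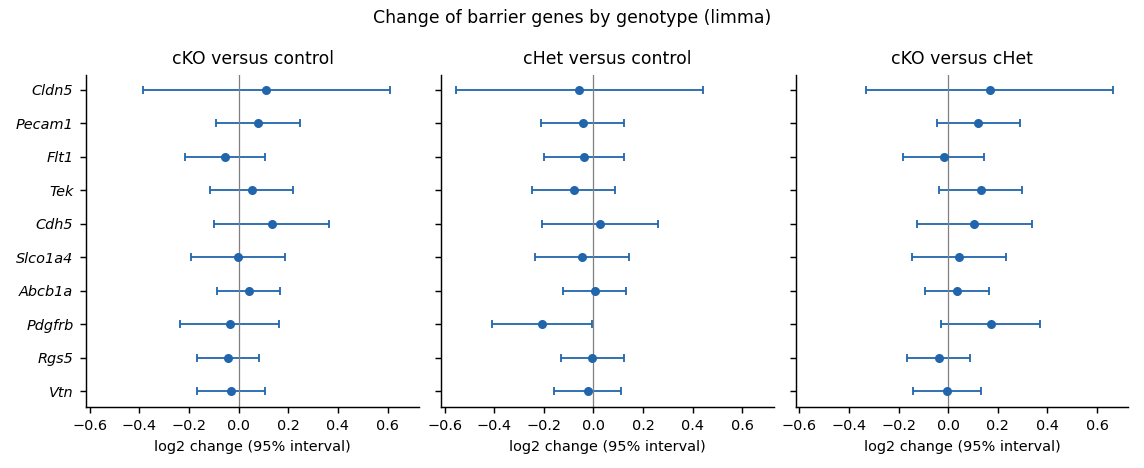
Log2 change of each barrier gene with its 95% interval from limma, for cKO versus control, cHet versus control and cKO versus cHet; points right of 0 are higher in the genotype named first. The interval of Pdgfrb in cHet versus control, -0.41 to -0.01, is the only interval in the 3 panels that excludes 0, and its adjusted p was 0.425; the interval of Cldn5 is the widest in each panel.

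In cHet cords, which keep a Tardbp allele without loxP sites, 0 of 10 barrier genes were called against control. Over all genes the share called was 0%, while 1724 genes had an unadjusted p under 0.05 by limma, and the authors' deposited table held 0 genes at a likelihood ratio q-value under 0.05 and 28 at a Wald q-value under 0.05. Groups did not overlap for 6.23% of all genes and for no barrier gene. Pdgfrb had the largest estimate, with 4.24, 5.10, 4.59 and 3.78 TPM in cHet cords, against 5.10, 5.03, 5.49 and 5.05 TPM in control cords. Cords of cHet replicates 1, 3 and 4 were below every control cord, and replicate 2 lay inside the control range. The log2 change of -0.21 (SE 0.09) had an unadjusted p of 0.0431 and an adjusted p of 0.425 by limma, and the exact permutation test over the 70 assignments of these 8 mice gave p = 0.114, two-sided, where the smallest possible p is 0.0286.

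Estimates for the remaining genes were smaller, and most lay below 0: 8 of 10 did, with a median log2 change of -0.04 over the 10 genes against 0.01 over all genes. The cord of cHet replicate 4 was the lowest of the 12 mice for 5 genes, and that of cHet replicate 1 was among the lowest 3 for 8 genes. Cldn5 had 40.3, 45.1, 37.7 and 21.7 TPM in cHet cords, Cdh5 5.24, 5.13, 5.42 and 4.14 TPM, Pecam1 10.4, 12.1, 12.2 and 9.68 TPM and Tek 5.41, 6.21, 5.76 and 4.96 TPM. Replicate 4 was the lowest cHet cord for each of these endothelial genes. For Slco1a4 (58.5, 65, 71.6 and 63.9 TPM in cHet cords), Abcb1a (14.7, 15.3, 16.5 and 15.8 TPM) and Rgs5 (37.3, 39.4, 44.2 and 43.0 TPM) it was replicate 1 that was lowest. Flt1 had 17.1, 19.4, 19.6 and 17.3 TPM in cHet cords, inside the control range, and Vtn had 33.7, 35.9, 37.3 and 36.5 TPM, on both sides of the narrow control range. Without replicate 4 the estimate for Cldn5 was 0.17, against -0.06 with all mice, and without replicate 1 the median of the 10 genes was 0.00.

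Between the Cre-carrying genotypes, 0 of 10 barrier genes were called in cKO against cHet, where 5.01% of all genes were called, 2.41% higher and 2.61% lower, or 367 and 398 genes, against 253 and 660 with libraries rescaled to the same total. The groups of no barrier gene were separate, against 11.5% of all genes. The median log2 change was 0.07 over the 10 genes and 0.00 over all genes, and 7 of the 10 estimates were above 0. The largest were Pdgfrb at 0.17 (SE 0.09, adjusted p = 0.367), Cldn5 at 0.17 (SE 0.23, adjusted p = 0.778), Tek at 0.13 (SE 0.08, adjusted p = 0.414) and Pecam1 at 0.12 (SE 0.08, adjusted p = 0.454), all by limma. The cHet cords serve here as they did against control, and the cKO cords likewise, so the 3 comparisons share their mice.

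By labelled sex, 0 of 10 barrier genes were called in female against male mice with genotype in the fit, where the share over all genes was 0% and 902 genes had an unadjusted p under 0.05 by limma. Rgs5 was the gene with separate groups, which 0.223% of all genes had. Its log2 change was 0.12 (SE 0.03, unadjusted p = 0.00383, adjusted p = 0.640 by limma), and without the library labelled control replicate 1 it was 0.12 (adjusted p = 0.822). Counted as female, that library (39.5 TPM of Rgs5) would lie below cKO replicate 4, labelled male (39.9 TPM), and the groups would overlap. Abcb1a had a log2 change of 0.11 (unadjusted p = 0.0112, adjusted p = 0.781), and 0.10 without that library. Cldn5 went the other way, with 33.3 ± 7.49 TPM in mice labelled female and 42.2 ± 6.87 TPM in mice labelled male (SD, n = 6 each; log2 change -0.35, limma adjusted p = 0.845), and -0.31 without that library. Without it, 10 genes of the whole table were called and no barrier gene was among them.

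The barrier genes differed in their spread between mice of the same genotype, and Cldn5 stood out. The residual SD of Cldn5, after the group means were taken out, was 0.37 on the log2 scale, above that of 99.2% of the 5220 genes within 1 log2 unit of its level, whose median was 0.08. Its values ran from 21.7 to 50.2 TPM. The authors' deposited table attributed 1.68% to 2.77% of its observed variance to the estimation of abundance. Slco1a4 had a residual SD of 0.14, above 90.8% of genes of like level. The other 8 genes lay between the 22nd and the 57.5th percentile, with Tek lowest and Vtn highest. So 2 of the 10 genes lay above the 90th percentile, where 10% of genes lie by construction. Tek in cKO cords, at 6.14 ± 0.0650 TPM (SD, n = 4), had the smallest spread relative to its mean of the 10 genes in the 3 genotypes.

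Some barrier genes varied together across the 12 mice and others in opposite directions. Of the 45 pairs, 35 had a positive Pearson's r, with a median of 0.25, and 2 passed an adjusted p under 0.05 over the 45 pairs. Pecam1 and Tek gave r = 0.847 (permutation p = 0.00064, adjusted p = 0.0288; Spearman's rho 0.769, p = 0.00486, adjusted p = 0.0729). Both were lowest in cHet replicate 4. The farthest mice left out were chosen by the gene named first in each pair, and not by the second gene. Without cHet replicates 1 and 4, the 2 mice farthest from the median of Pecam1, r was 0.592 (permutation p = 0.0735, adjusted p = 0.337). The relation of Pecam1 and Tek was thus weaker and did not pass without them, with fewer mice left. With genotype means subtracted it was 0.811, adjusted p = 0.262. Slco1a4 and Abcb1a gave r = 0.823 (permutation p = 0.00134, adjusted p = 0.0302; rho 0.804, p = 0.00257, adjusted p = 0.0650). Without cKO replicate 4 and control replicate 3, the 2 mice farthest from the median of Slco1a4, r was 0.845 (permutation p = 0.00251, adjusted p = 0.0834). With genotype means subtracted it was 0.849 (adjusted p = 0.0760). Rgs5, a pericyte gene, went with Abcb1a at r = 0.720 (permutation p = 0.00846, adjusted p = 0.0952; rho 0.797, p = 0.00289), and with genotype means subtracted at 0.837 (adjusted p = 0.0356). Cldn5 was positively related to Cdh5 (r = 0.731, permutation p = 0.00715, adjusted p = 0.0952; rho 0.441, p = 0.156; r = 0.290 without the 2 farthest mice). Its r with Slco1a4 was -0.535 (permutation p = 0.0735, adjusted p = 0.202; rho -0.671, p = 0.0208; r = -0.813 without the 2 farthest mice).

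**Figure D3:**
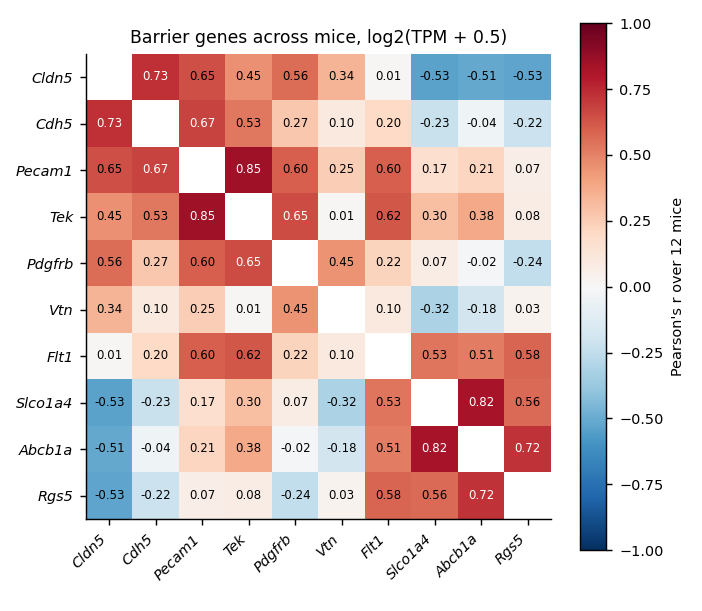
Pearson's r between each pair of barrier genes over the 12 mice, on log2(TPM + 0.5) values, red for positive and blue for negative. Cldn5, Cdh5, Pecam1 and Tek have positive r with each other (0.45 to 0.85). Without cHet replicate 4 and control replicate 3, r of Cldn5 is -0.03 with Pecam1 and -0.22 with Tek. Flt1, Slco1a4, Abcb1a and Rgs5 also have positive r with each other (0.51 to 0.82). Without cHet replicate 3 and control replicate 4, r of Flt1 with Rgs5 is -0.06. These sets are not separate: Flt1 has r = 0.60 with Pecam1 and 0.62 with Tek. Pdgfrb has r = 0.65 with Tek and 0.60 with Pecam1. Cldn5 is negative with Slco1a4, Abcb1a and Rgs5.

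Because Cldn5 varied so much, it was compared with 40 other genes listed for endothelial junctions, transport and identity. That family was chosen after the spread was seen. Values from whole cord do not show which cells made the RNA of these genes, so a relation to Cldn5 need not lie within endothelium. Of the 40 genes, 21 had a positive and 19 a negative r to Cldn5, and 5 passed an adjusted p under 0.05 over the 40. Slco1c1, a thyroid hormone carrier of barrier endothelium, went with it (r = 0.899, permutation p = 7e-05, adjusted p = 0.0028; rho 0.846, p = 0.00089), with 27.3, 30.4, 27.5 and 26.5 TPM in cKO cords, 27.6, 28.5, 27.1 and 24.7 TPM in cHet cords and 28.5, 28.5, 26.5 and 28.1 TPM in control cords. Kdr, which encodes VEGF receptor 2, also did (r = 0.898, permutation p = 0.0002, adjusted p = 0.0040; rho 0.804, p = 0.00261), with 4.68, 4.89, 4.76 and 3.92 TPM in cKO cords, 3.76, 4.72, 4.25 and 2.18 TPM in cHet cords and 4.94, 4.19, 2.61 and 4.36 TPM in control cords. In each genotype the mouse with the lowest Cldn5 (cKO replicate 4, cHet replicate 4 and control replicate 3) was also the lowest for both genes.

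The same 3 mice were high for genes that ran against Cldn5. Slc2a1, the glucose carrier of the barrier, had 68.4, 74.9, 73.6 and 85.9 TPM in cKO cords, 62.9, 66.0, 70.7 and 118.4 TPM in cHet cords and 60.1, 65.7, 76.8 and 62.3 TPM in control cords (r = -0.774, permutation p = 0.00521, adjusted p = 0.0417; rho -0.524, p = 0.0846). Adgrl4, an adhesion receptor of endothelium, had 11.7, 9.23, 13.6 and 18.7 TPM in cKO cords, 9.12, 8.52, 9.21 and 15.4 TPM in cHet cords and 8.89, 7.99, 13.4 and 10.7 TPM in control cords (r = -0.753, permutation p = 0.0046, adjusted p = 0.0417; rho -0.671, p = 0.0197). In all 3 genotypes the mouse lowest for Cldn5 was the highest for both. Slc16a1, the lactate and ketone carrier MCT1, was the fifth (r = 0.819, permutation p = 0.00125, adjusted p = 0.0167; rho 0.769, p = 0.00478). Adjusted over the 40 genes, the permutation p of rho was 0.0356 for Slco1c1, 0.0522 for Kdr and 0.0637 for Slc16a1. It was 0.197 for Adgrl4 and 0.564 for Slc2a1, so by rank Slco1c1 alone passed. With genotype means subtracted, r was 0.919 for Slco1c1, 0.907 for Kdr, 0.862 for Slc16a1, -0.866 for Slc2a1 and -0.954 for Adgrl4. Without cHet replicate 4 and control replicate 3, the 2 mice farthest from the median of Cldn5, r was 0.790, 0.636, 0.646, -0.409 and -0.721 in that order, and no adjusted p was under 0.05. Each of these calls was lost without those mice, with fewer mice left, and the relation of Slc2a1 was then the weakest.

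**Figure D4:**
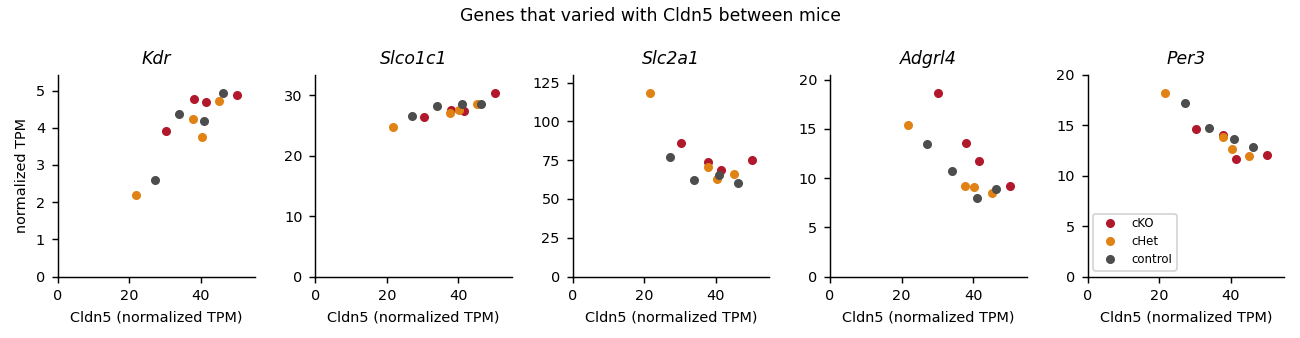
Normalized TPM of Kdr, Slco1c1, Slc2a1, Adgrl4 and the clock gene Per3 (vertical axes, from 0) against that of Cldn5 (horizontal axes, from 0), a point for each of the 12 mice, coloured by genotype. Kdr and Slco1c1 are low and Slc2a1, Adgrl4 and Per3 are high in the mice at the left, where Cldn5 is 21.7 TPM in a cHet, 27.2 TPM in a control and 30.3 TPM in a cKO cord.

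Over all 14896 genes with a single row, the 5 whose log2 level was most like Cldn5 across the 12 mice were Vstm4 (r = 0.914), Sox2 (0.904), Slco1c1 (0.899), Kdr (0.898) and Dtx4 (0.874). The 5 most opposite were Pitpnm2 (-0.938), Per3 (-0.937), Map3k6 (-0.894), Nr1d2 (-0.890) and Zfp672 (-0.886). Sox2 is a transcription factor of glial cells, so the likeness was not limited to genes of the vessel wall. The mean of the 7 endothelial genes was most like Seh1l (0.919), Pcnp (0.910), Xrcc4 (0.904), Cr1l (0.868) and Btf3l4 (0.856), and the mean of the 3 pericyte genes most like Cdk2 (0.923), Arhgap11a (0.848), S1pr3 (0.827), Gigyf2 (0.825) and Rps13-ps4 (0.819). These are the extremes of a ranking over the whole table and are given as a description.

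Other genes of the vessel wall were counted in lists named for their role, with limma calls at an adjusted p under 0.05 over all genes. The lists are small, no test compares them with each other or with all genes, and 9.00% of all genes were called in cKO against control. In cKO against control, the 11 junction genes counted beside Cldn5 and Cdh5 had 2 called higher and 1 lower, with a median log2 change of 0.01. Ocln, which encodes the tight junction protein occludin, rose to 5.76, 5.72, 5.18 and 5.21 TPM in cKO cords, against 3.93, 4.49, 4.43 and 4.08 TPM in control cords (log2 change 0.33, SE 0.08, adjusted p = 0.0243). Jam2, a junctional adhesion molecule, also rose (0.22, adjusted p = 0.0247). Jam3, its relative, fell to 51.1, 54.2, 55.6 and 46.6 TPM in cKO cords, against 62.2, 59.5, 63.5 and 62.3 TPM in control cords (-0.25, SE 0.05, adjusted p = 0.00923). All 3 genes had separate groups. The call of Ocln was lost without cKO replicate 1 or 2 or control replicate 1 or 4 and with libraries rescaled to equal totals, mitochondrially encoded genes in or out (adjusted p up to 0.0816), and that of Jam2 without cKO replicate 1, 2 or 3 or control replicate 1, 2 or 3 and with the same rescalings (up to 0.144).

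Of 14 transport genes, 2 were called higher and none lower, which is near the 9.00% of all genes. They were Slc7a5 (log2 change 0.42, SE 0.11, adjusted p = 0.0338) and Slc3a2 (0.38, SE 0.06, adjusted p = 0.00317), the light and heavy chain of the large neutral amino acid carrier. The call of Slc7a5 was lost without cKO replicate 1, 3 or 4 or control replicate 1, 2 or 4, with the same rescalings, with no filter on low values and without the eBayes trend, 10 of 23 alternatives in all (adjusted p up to 0.0973). Of 15 genes of endothelial identity none was called, with a median log2 change of 0.08, and the smallest p belonged to Ly6a (0.19, adjusted p = 0.0860) and Cd34 (0.14, adjusted p = 0.192). Of 7 tested genes of activation and leak, Cav1, the coat protein of caveolae, fell to 14.2, 14.5, 17.2 and 12.8 TPM in cKO cords, against 16.8, 20.4, 22.5 and 21.0 TPM in control cords (-0.45, SE 0.10, adjusted p = 0.0151), with a slight overlap of the groups. The other 6 were not called.

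Beside the 3 pericyte genes, none of 12 tested pericyte genes was called, with a median log2 change of -0.06, and the smallest p belonged to Atp13a5 (-0.35, adjusted p = 0.135) and Foxf2 (0.23, adjusted p = 0.244). In arterial smooth muscle 1 of 5 was called: Tagln, which encodes the actin-binding protein transgelin, fell to 6.93, 7.97, 6.51 and 8.98 TPM in cKO cords, against 10.1, 12.4, 12.4 and 11.6 TPM in control cords (-0.59, SE 0.11, adjusted p = 0.00801). None of 12 genes of the vascular basement membrane was called, and the smallest p belonged to Agrn (-0.20, adjusted p = 0.0572) and Lama5 (-0.67, adjusted p = 0.0727).

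Of 12 tested ligands and co-receptors, 3 were called higher and none lower. Vegfb, a ligand of the Flt1 receptor, rose to 110.4, 123.1, 116.9 and 119.1 TPM in cKO cords, against 97.0, 95.8, 94.3 and 91.4 TPM in control cords (log2 change 0.31, SE 0.04, adjusted p = 0.000362). Angpt1, the activating ligand of the Tek receptor, rose to 5.58, 6.34, 6.33 and 5.45 TPM in cKO cords, against 4.17, 4.36, 4.31 and 4.32 TPM in control cords (0.42, SE 0.07, adjusted p = 0.00395). Nrp1, a co-receptor of VEGF and semaphorins, also rose (0.28, SE 0.06, adjusted p = 0.0113). The groups of all 3 genes were separate, while Flt1 and Tek, the receptors for the products of Vegfb and Angpt1, were not called. Of 14 genes of the Wnt pathway that sets up the barrier, 1 was called in each direction: Wnt7b rose to 16.9, 17.0, 17.8 and 17.8 TPM in cKO cords, against 12, 13, 14 and 14.5 TPM in control cords (0.37, SE 0.08, adjusted p = 0.0105). Wnt7a fell to 4.33, 4.95, 4.49 and 4.94 TPM in cKO cords, against 7.80, 6.70, 7.65 and 8.10 TPM in control cords (-0.64, SE 0.12, adjusted p = 0.00671). Of 10 genes of the astrocyte endfoot, Gja1, the gap junction protein connexin 43, fell (-0.26, SE 0.07, adjusted p = 0.0330) and no other was called. The call of Gja1 was lost without cKO replicate 1 or 4 or control replicate 2, 3 or 4, with no filter on low values and without the eBayes trend (adjusted p up to 0.0896).

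**Figure D5:**
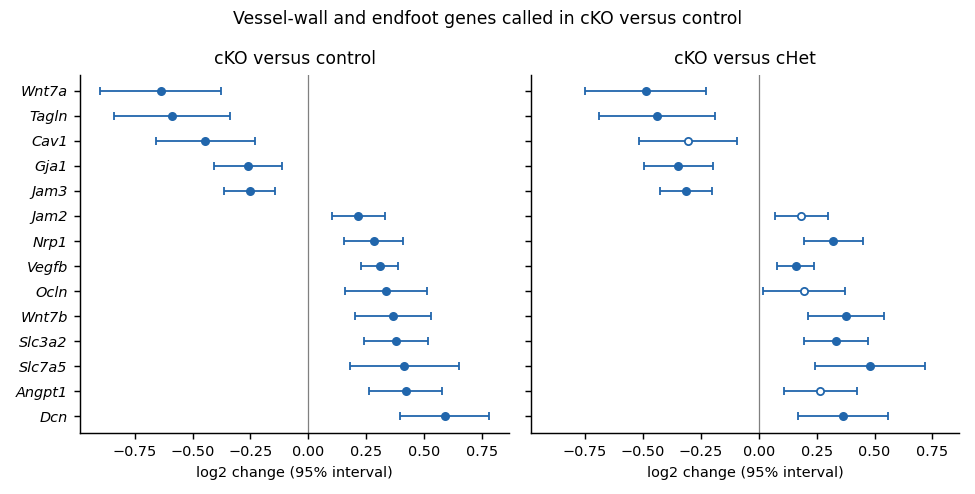
Log2 change with 95% interval of 14 vessel-wall, endfoot and fibroblast genes called in cKO versus control, in that comparison (left) and in cKO versus cHet (right); filled points are called at a limma adjusted p under 0.05. All 14 are filled on the left, 10 are filled on the right, and each gene lies on the same side of 0 in both panels, which share the cKO mice.

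In cKO against cHet, Jam3, Tagln, Wnt7a and Gja1 were again called lower and Slc3a2, Slc7a5, Nrp1, Vegfb, Wnt7b and Dcn higher, and Ctnnd1, a catenin bound to cadherins, was called lower (-0.25, adjusted p = 0.0299). Of these, the calls of Tagln, Wnt7a, Slc7a5, Vegfb, Dcn and Ctnnd1 were each lost without cHet replicate 2 and without several other libraries, cKO replicate 1 or 2 always among them (adjusted p up to 0.122 for Tagln). In cHet against control no gene of these lists was called.

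Markers of other cells in the samples were read beside these values. The 7 genes of meningeal fibroblasts summed to 35.6 to 41.5 TPM in cKO cords, against 30.8 to 36.9 TPM in control cords, and Dcn, a matrix proteoglycan of fibroblasts, was the 1 gene of them called (log2 change 0.59, SE 0.09, adjusted p = 0.00165). The 5 blood genes, chiefly haemoglobins, summed to 1070 to 5123 TPM in cKO cords, 816 to 1890 TPM in cHet cords and 1094 to 2726 TPM in control cords, and none was called; Hba-a2 (log2 change 0.25, adjusted p = 0.810) and Hbb-bs (0.24, adjusted p = 0.821) had the smallest p, and near-identical globin genes can share reads. Of 5 Schwann cell genes 2 were tested and none called, with the smallest p for Ncmap (-0.28, adjusted p = 0.514). Of 6 perivascular macrophage genes, Pf4 alone reached 1 TPM on average and it was not called (0.31, adjusted p = 0.683). Astrocyte genes had 3 of 6 called higher (Slc1a2, Aldoc and Gfap) and Slc1a3 lower, oligodendrocyte genes 4 of 6 lower (Cnp, Mag and Mog among them), neuron genes 1 of 6 higher (Rbfox3) and microglia genes 4 of 6 higher (Cx3cr1, Tmem119 and Csf1r among them) in cKO against control. The share called over all genes was 9.00%, and no test compared these lists with it. Of 23 alternatives, 6 lost the call of Tmem119, 7 that of Csf1r and 1 that of Cx3cr1. The limma adjusted p reached 0.0752, 0.147 and 0.0554 in that order. Slc1a2, Aldoc, Slc1a3, Cnp, Mag, Mog and Rbfox3 kept their calls in all 23. The oligodendrocyte genes summed to 17060 to 19430 TPM in cKO cords, against 20463 to 21403 TPM in control cords. The part of these cells in the values of the vessel-wall genes was not tested.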

How the data were processed

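RNA from whole cord, frozen in liquid nitrogen and extracted with Trizol, was sequenced from Illumina TruSeq libraries, per the labels' protocols. The values are the authors' normalized TPM per gene, a deposited signal made with kallisto 0.44.0 and sleuth 0.30.0 on GRCm38, per the submitters' processing notes; libraries sum to between 954895 and 1048381. TPM keeps no read depth, so depth is unknown and no counting interval is given. Deposited tables of the authors' p-values, q-values and an effect and variance score were read for the barrier genes and for counts over all genes.

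Genes averaging 1 TPM or more were tested on log2(TPM + 0.5) with limma 3.58.1 in R 4.3.3 (eBayes with trend, two-sided, Benjamini-Hochberg over 15259 genes, all 12 mice), so a fold change understates that of low genes. Genes at an adjusted p under 0.05 are called. Single genes were also compared by exact permutation of 8 mice, and pairs of genes by 100000 permutations. The limma step was tested on simulated data. Positions come from GENCODE annotation of GRCm38 and promoter windows from RefSeq.

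Genotype and sex come from the labels; replicate numbers are only names. The labels give no litter, batch or hour of collection. The 10 marker genes and 18 companion lists were chosen with earlier results of these data known. All 10 genes are named; of each list, called genes were named or, where none was called, the 2 with the smallest p. Some genes of the companion lists are not reported here.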

Additional observations from a re-analysis of the deposited data

Results flagged for a closer look

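In each genotype, the level of each barrier gene, Tardbp and Gfap was checked for a mouse far from the other 3, which chance alone flags in about 1 of 20 sets; 36 sets were checked and 3 held one. Pdgfrb in control replicate 3 was 5.494 TPM, above the other control cords by 0.846 of the group's range. Tardbp in cKO replicate 4 was 140.5 TPM, below the other cKO cords by 0.912 of the range. Gfap in control replicate 2 was 1092 TPM, below the other control cords by 0.864 of the range.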

How the results depend on the processing

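The count of barrier genes called stayed at 0 in all 91 alternatives run over the 4 comparisons (pseudocount, filter, scaling, covariate, mice in the fit, trend, rows of a symbol added, and each mouse left out). The filter at a mean of at least 5 TPM removed Pdgfrb (4.88 TPM), so it could not be called in that alternative. No paired analysis was possible because the replicate numbers carry no pairing. Log2 changes of barrier genes that passed no test changed sign as follows. With equal library totals, cKO against control gave -0.011 for Pecam1, -0.034 for Tek and -0.050 for Abcb1a, cHet against control gave -0.020 for Cdh5 and -0.045 for Abcb1a, cKO against cHet gave -0.0050 for Abcb1a, and female against male gave 0.0032 for Vtn. Without mitochondrially encoded genes in the total, cKO against control gave -0.011 for Abcb1a, cHet against control gave -0.022 for Cdh5 and -0.047 for Abcb1a, and female against male gave 0.0065 for Vtn. Median-of-ratios scaling gave -0.0067 for Abcb1a in cHet against control. Leaving out 1 mouse at a time, the ranges that crossed 0 in cKO against control were -0.027 to 0.235 for Cldn5, -0.104 to 0.018 for Flt1, -0.072 to 0.052 for Slco1a4, -0.092 to 0.00067 for Pdgfrb and -0.096 to 0.014 for Vtn. In cHet against control they were -0.195 to 0.168 for Cldn5, -0.090 to 0.017 for Pecam1, -0.085 to 0.037 for Flt1, -0.033 to 0.105 for Cdh5, -0.115 to 0.0090 for Slco1a4, -0.030 to 0.040 for Abcb1a, -0.042 to 0.039 for Rgs5 and -0.043 to 0.0057 for Vtn. In cKO against cHet they were -0.057 to 0.292 for Cldn5, -0.051 to 0.014 for Flt1, -0.011 to 0.092 for Slco1a4 and -0.072 to 0.038 for Vtn. In female against male they were -0.054 to 0.026 for Pecam1, -0.0030 to 0.073 for Flt1, -0.038 to 0.040 for Tek, -0.087 to 0.020 for Cdh5 and -0.038 to 0.045 for Vtn. Genes called over the whole table in cKO against control numbered 815 to 1513 with 1 mouse left out, against 1374 with all mice; leaving out cKO replicate 2 gave 815, cKO replicate 4 gave 891 and control replicate 2 gave 907, with fewer mice in those fits. In cHet against control they numbered 2 with no filter and 0 to 1 with 1 mouse left out, and in female against male 0 to 10. Of the 45 pairs of barrier genes, 1 passed with genotype means subtracted. Without the 2 mice farthest from the median of the gene named first, 0 passed, and fewer mice remained. Of the 14 vessel-wall, endfoot and fibroblast genes named as called in cKO against control, 10 kept the call in every alternative and 4 lost it in at least 1. TPM without depth leaves the counting error of low genes such as Cdh5 and Pdgfrb unknown.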

Other observations

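Among the genes most opposite to Cldn5, Per3 and Nr1d2 belong to the circadian clock, so 13 clock genes were read after that was seen, and the values are given with no test. Across the 12 mice 9 of them had a negative r to Cldn5 and 4 a positive one, from -0.94 for Per3 to 0.78 for Arntl. Some were weakly related or unrelated to it: r was -0.45 for Cry1, -0.23 for Cry2, 0.0003 for Nr1d1 and 0.30 for Npas2. Per2, a repressor of the clock loop, had 3.97, 5.18, 5.24 and 5.87 TPM in cKO cords, 4.48, 4.67, 5.73 and 9.04 TPM in cHet cords and 4.36, 4.43, 6.74 and 5.47 TPM in control cords. Per3 had 11.6, 12.1, 14.0 and 14.7 TPM in cKO cords, 12.7, 11.9, 13.8 and 18.2 TPM in cHet cords and 12.8, 13.7, 17.2 and 14.7 TPM in control cords. Both were highest, in each genotype, in the mouse with the lowest Cldn5. Arntl, an activator of the loop, had 9.58, 10.02, 7.20 and 6.46 TPM in cKO cords, 9.81, 8.02, 7.49 and 6.18 TPM in cHet cords and 9.08, 8.37, 7.71 and 8.15 TPM in control cords, and was lowest in the same 3 mice. Ciart and Dbp, clock-controlled genes, had the r values to Slco1a4 farthest above 0 of the 13, 0.793 and 0.756. The hour at which each cord was collected is not given in the sources used here, and its part in the spread of Cldn5 was not tested.

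Spread between mice differed among the other genes of the endothelial lists. Slc2a1 lay at the 98.9th percentile of residual SD among genes of like level, Ly6c1 at the 97.6th, Mfsd2a, the lipid carrier that keeps barrier vesicle traffic low, at the 97.4th and Adgrl4 at the 97.0th, while Slco1c1 lay at the 34.5th and Slco2b1, another carrier, at the 19.5th. Above the 90th percentile, where 10% of genes lie by construction, were 4 of 14 transport genes, 2 of 15 identity genes, 1 of 11 junction genes and 0 of 12 pericyte genes. The mean log2 deviation of GC-rich minus AT-rich genes was 0.06 in cKO replicate 4, 0.03 in cHet replicate 4 and 0.00 in control replicate 3, the mice lowest for Cldn5. In the other mice it was 0.04 to 0.06 in cKO, -0.08 to -0.01 in cHet and -0.08 to 0.00 in control cords, so the cHet cord stood above the others of its genotype. The part of base composition in the spread of Cldn5 was not tested.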
